A study of Mus musculus with 2 samples.

Results

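Spry1, Spry2, Spred1, Dusp2, Dusp4, Dusp5, Dusp6 and Dusp10 encode inhibitors that act on the Ras and MAP kinase cascade, and they make up 8 of the 27998 genes counted in CD45+ leukocytes from untreated and nicotinamide (NAM)-treated TSA tumors. They were chosen by symbol, with Spry2 selected on its low level in NAM-treated NK-like cells. The Spry2 values in NK cells are therefore given as a description. TSA is a mouse mammary adenocarcinoma cell line, which was injected subcutaneously into immunocompetent BALB/c female mice, with only an age range for all animals of the study in the methods. The untreated group received no NAM, and the NAM group received 0.5% NAM in the drinking water for 10 days. Tumors of 3 mice per group were dissociated and pooled, CD45+ cells were taken by magnetic separation, and each pool gave 1 library of 10x Genomics 3′ single-cell RNA sequencing, so that mice cannot be told apart. With 1 library per group there is no test of NAM, and a difference between the libraries cannot be told apart from a difference between preparations or pools.

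Sprouty and Spred proteins restrain signaling between growth factor or antigen receptors and the kinase RAF, whereas dual-specificity phosphatases (DUSPs, also called MAP kinase phosphatases) remove the activating phosphates from ERK, p38 and JNK. Many of these genes are themselves switched on by ERK signaling, so that they form a negative feedback and their mRNA is often read as a trace of recent pathway activity. In lymphocytes, several of them are induced by receptor engagement.

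The untreated library held 2922 cells with 29161823 unique molecular identifiers (UMIs, each standing for 1 captured mRNA molecule), and the NAM library held 3276 cells with 32090120 UMIs. Cells were grouped by marker UMIs. The NK gate (at least 1 UMI of the NK receptor gene Ncr1 and none of Cd3e) held 92 untreated and 52 NAM cells, the T gate (Cd3e but no Ncr1) held 231 and 325, and the myeloid gate (Csf1r, with neither Cd3e nor Ncr1) held 2374 and 2607. Another 11 and 19 cells had both Ncr1 and Cd3e and were kept apart, and 214 and 273 cells entered no gate. All 12 NK markers were detected in the NK gate of both libraries, where the 10 T cell markers found in the files summed to 181 and 193 CPM (UMIs per 1000000 UMIs of the gate), against 3381 and 3288 CPM in the T gate. Macrophage marker RNA was present in all gates. The 10 macrophage markers summed to 10415 CPM in untreated and 18061 CPM in NAM NK-gated cells, with none at 0, to 17775 and 19916 CPM in T-gated cells, and to 44767 and 45435 CPM in myeloid-gated cells. The NK list summed to 10855 and 13243 CPM in NK-gated cells and, with Tyrobp and Fcer1g that myeloid cells share, to 6224 and 6836 CPM in myeloid-gated cells. Monocyte and dendritic cell markers summed to 771 to 1767 CPM and 1457 to 6494 CPM over the 3 gates and both libraries, and those of B cells, neutrophils, mast cells or basophils, and tumor or stroma to 3.68 to 75.6 CPM each. The highest of these monocyte sums was in untreated NK-gated cells, mostly from Ly6c2 (812 CPM), Plac8 (615) and Ccr2 (289), with Vcan and Chil3 at 0. H2-Ab1 gave 1414 of the 1457 CPM of dendritic markers there, with Flt3, Xcr1, Clec9a and Cd209a at 0. A Csf1r UMI was seen in 26.1% and 26.9% of NK-gated barcodes and in 28.6% and 32% of T-gated barcodes, and values without them are therefore also given. The libraries shared 11 cell barcodes. Levels are given below as CPM with 95% exact Poisson intervals, and the libraries are compared as log2 of the NAM over the untreated CPM, with 95% exact conditional binomial intervals. These intervals cover counting error only.

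Promoter sequences from RefSeq (GRCm38.p6, 250 bases before to 50 bases after the start site) were found for 7 of the 8 members. Those of the 3 members with a UMI in most untreated NK-gated cells are printed in the direction of transcription, in lower case with motif matches in capitals. Spry2 lies on chromosome 14 (gene 105891947 to 105896819, minus strand, mm10, GENCODE vM21), and its promoter is chr14:105896770-105897069. Dusp2 lies on chromosome 2 (127336159 to 127338376, plus strand), with its promoter at chr2:127335909-127336208. Dusp5 lies on chromosome 19 (53529109 to 53542431, plus strand), with its promoter at chr19:53528895-53529194.
Spry2: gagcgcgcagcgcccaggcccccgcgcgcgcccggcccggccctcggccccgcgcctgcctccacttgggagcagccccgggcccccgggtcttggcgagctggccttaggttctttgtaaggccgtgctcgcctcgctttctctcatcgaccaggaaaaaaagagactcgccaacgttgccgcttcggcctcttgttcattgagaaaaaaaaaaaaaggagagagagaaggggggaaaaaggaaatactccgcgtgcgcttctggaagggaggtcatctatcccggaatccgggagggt
Dusp2: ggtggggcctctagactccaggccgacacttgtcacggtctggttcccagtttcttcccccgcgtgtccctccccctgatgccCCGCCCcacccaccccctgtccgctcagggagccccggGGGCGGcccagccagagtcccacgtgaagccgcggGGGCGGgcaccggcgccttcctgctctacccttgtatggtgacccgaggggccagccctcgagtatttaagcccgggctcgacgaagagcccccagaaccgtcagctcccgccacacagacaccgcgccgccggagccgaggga
Dusp5: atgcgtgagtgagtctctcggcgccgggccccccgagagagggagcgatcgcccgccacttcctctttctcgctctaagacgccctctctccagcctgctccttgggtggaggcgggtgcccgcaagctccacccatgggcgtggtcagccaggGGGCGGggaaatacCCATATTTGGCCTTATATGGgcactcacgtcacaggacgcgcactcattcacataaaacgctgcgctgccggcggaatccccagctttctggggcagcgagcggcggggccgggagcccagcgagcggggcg

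Motifs were searched on both strands: the ETS core CCGGAAG (in 8.86% of the 32851 promoters of that table), AP-1 TGANTCA (7.81%), the cyclic AMP response element TGACGTCA (1.79%), EGR GCGTGGGCG (0.612%), the GC box GGGCGG (35.7%) and the serum response factor site called the CArG box (1.63%). A GC box can share bases with an EGR match. The Dusp5 promoter held a pair of adjacent CArG boxes, which began 82 and 72 bases before the start site, and a GC box that began 96 bases before it. Dusp2 held 3 GC boxes, which began 167, 129 and 94 bases before the start site. The other members are also protein-coding genes, Spry1 on chromosome 3 (37639947 to 37644598), Spred1 on chromosome 2 (117121374 to 117182279), Dusp4 on chromosome 8 (34807297 to 34819894), Dusp6 on chromosome 10 (99263231 to 99267489) and Dusp10 on chromosome 1 (184013302 to 184075636), all on the plus strand. In the Spry2 window none of these letters was found. Among the members whose promoters are not printed, Spry1 held 1 GC box, Spred1 3, Dusp10 3 and Dusp6 none, and the CArG box was seen in the Dusp5 window alone of the 7. The Dusp10 window, chr1:184034131-184034430, lies inside the gene span given above and not at its first base. These are matches of letters and were not tested as binding sites.

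Among the members with 20 UMIs, Spry2, which inhibits receptor-driven ERK activation, differed most between the libraries in the NK, T and myeloid gates. It was lower in NAM in each of these gates, although within the T gate the interval of the cells with Cd8a or Cd8b1 includes 0. In NK-gated cells, 249 UMIs in the untreated library corresponded to 354 CPM (interval 311 to 401), and 23 UMIs in the NAM library to 68.2 CPM (43.2 to 102). That is a 5.19-fold lower level in NAM, a log2 ratio of -2.38 (-3.06 to -1.76). Of 5236 genes with at least 20 UMIs in this gate over both libraries, Spry2 had the 31st lowest ratio, a place that follows from how it was picked.

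The lower level in NK-gated cells came with both fewer positive cells and fewer UMIs per positive cell. A Spry2 UMI was found in 55 of 92 untreated cells (59.8%, exact binomial interval 49% to 69.9%) and in 15 of 52 NAM cells (28.8%, 17.1% to 43.1%). After each cell was thinned to 3000 UMIs, the shares were 42.4% and 17.3%, beside a median depth of 5722 and 4720.5 UMIs per cell before thinning. Among untreated cells, 27 had 1 to 2 Spry2 UMIs, 12 had 3 to 5 and 16 had 6 or more, up to 15 in a cell. No NAM cell had 6 or more: 12 cells had 1 to 2, 3 had 3 to 5, and the highest cell had 4. The 5 highest untreated cells held 67 of the 249 UMIs, and without the 5 highest cells of each library the log2 ratio was -3.04 (-4.13 to -2.13).

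**Figure D1:**
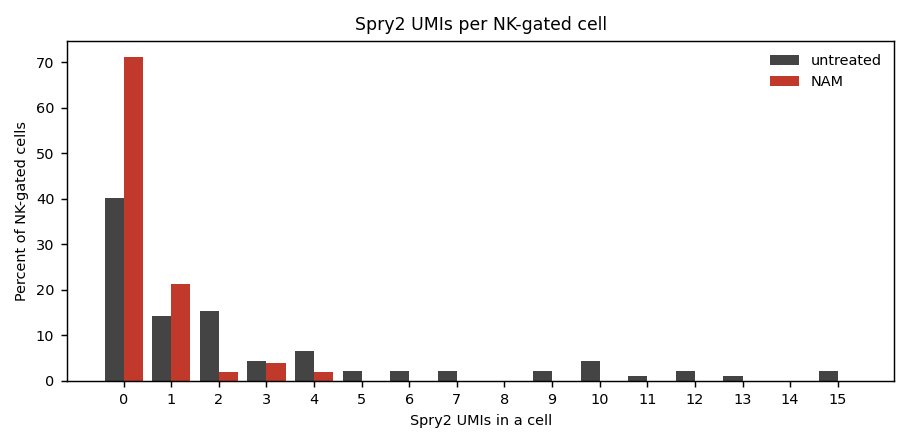
Spry2 UMIs per NK-gated cell (x axis) against the percent of NK-gated cells (y axis), in the untreated library (dark bars, 92 cells) and the NAM library (red bars, 52 cells). Untreated cells reach 15 UMIs, whereas NAM cells stop at 4 and 71.2% of them have none, against 40.2% of untreated cells.

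Most Spry2 UMIs of the NK gate, 206 of 249 untreated and 21 of 23 with NAM, lay in cells without a Csf1r UMI. In the 62 untreated and 34 NAM cells with neither Cd3d nor Csf1r, Spry2 was at 509 CPM (193 UMIs) and 101 CPM (17 UMIs), a log2 ratio of -2.34 (-3.15 to -1.62). In these cells the macrophage markers summed to 1759 and 3925 CPM. In the cells with a Csf1r UMI, 24 untreated and 14 NAM, Spry2 had 43 and 2 UMIs. The cells with both Ncr1 and Cd3e, kept apart from these gates, showed Spry2 in 10 of 11 untreated cells (51 UMIs, 699 CPM) and in 3 of 19 NAM cells (3 UMIs, 26 CPM), a log2 ratio of -4.75 (-7.07 to -3.12).

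In the T and myeloid gates, Spry2 was at lower levels than in the NK gate and was again lower in NAM. T-gated cells had 38.6 CPM untreated (61 UMIs in 28 of 231 cells) and 16.2 CPM with NAM (39 UMIs in 23 of 325 cells), a log2 ratio of -1.25 (-1.87 to -0.65). In the 165 and 221 T-gated cells without a Csf1r UMI, where the macrophage markers summed to 2852 and 2101 CPM, Spry2 counts of 42 and 30 UMIs gave 49.6 and 25.5 CPM, and the log2 ratio of -0.96 (-1.69 to -0.25) was not past 2-fold. Within the T gate, the cells with Cd8a or Cd8b1 had 51.1 and 34.8 CPM, with an interval of the log2 ratio that includes 0 (-1.29 to 0.19). T-gated cells with no UMI of Cd8a, Cd8b1 or Foxp3 had 29 UMIs untreated (40.5 CPM) and 3 with NAM (2.67 CPM, interval 0.551 to 7.81), a log2 ratio of -3.92 (-6.28 to -2.23). In the 46 and 51 of those cells without Csf1r, the counts were 15 and 1. Foxp3-positive T cells without Cd8a or Cd8b1, which Foxp3 marks as regulatory T cells, had 1 Spry2 UMI in 41 untreated cells and 0 in 37 NAM cells, where 3 UMIs would be 11.9 CPM.

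In myeloid-gated cells, Spry2 was seen in 9.06% of untreated cells (13.4 CPM, 340 UMIs) and in 4.45% of NAM cells (5.77 CPM, 158 UMIs), a log2 ratio of -1.22 (-1.50 to -0.95). It was lower in NAM in macrophage-gated cells (at least 10 C1qa UMIs and no Ly6c2), with 242 and 111 UMIs, and in the other myeloid cells, with 84 and 42. Monocyte-gated cells (at least 3 Ly6c2 and at most 3 C1qa) had 14 and 5 UMIs, under the minimum of 20 for a comparison. In the myeloid cells with at least 2 Csf1r UMIs and neither Cd3d nor Nkg7, the log2 ratio was -1.53 (-1.87 to -1.19). For Gzmc, a granzyme gene with high counts in NK-gated cells, the ratio to Spry2 differed between the gates. The untreated NK gate held 8.98 Gzmc UMIs per Spry2 UMI and the untreated myeloid gate 0.168, and for NAM the values were 14.5 and 0.114. The part of NK RNA in the myeloid Spry2 counts was not tested. Neither library had a Spry2 UMI in its 16 cells with at least 2 UMIs of both Ccr7 and Fscn1, markers of mature dendritic cells, where 3 UMIs would be 20.4 and 23.6 CPM. Of these 16 cells, 6 untreated and 3 NAM were also in the myeloid gate.

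The order of Spry2 levels was similar at its top in both libraries. The cells with both Ncr1 and Cd3e are left out of this order. Among the ordered gates of untreated tumors, the NK gate was highest and exceeded the CD8 T cells beyond counting error. The CD8 T and other T cells did not differ beyond it, the other T cells exceeded the monocytes, and from the monocytes down to the Ccr7 Fscn1 cells neighbors in the order were not separated. In NAM tumors the NK gate exceeded the CD8 T cells, and these exceeded the other myeloid cells, whereas the remaining gates, now including the other T cells, had neighbors that were not separated.

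**Figure D2:**
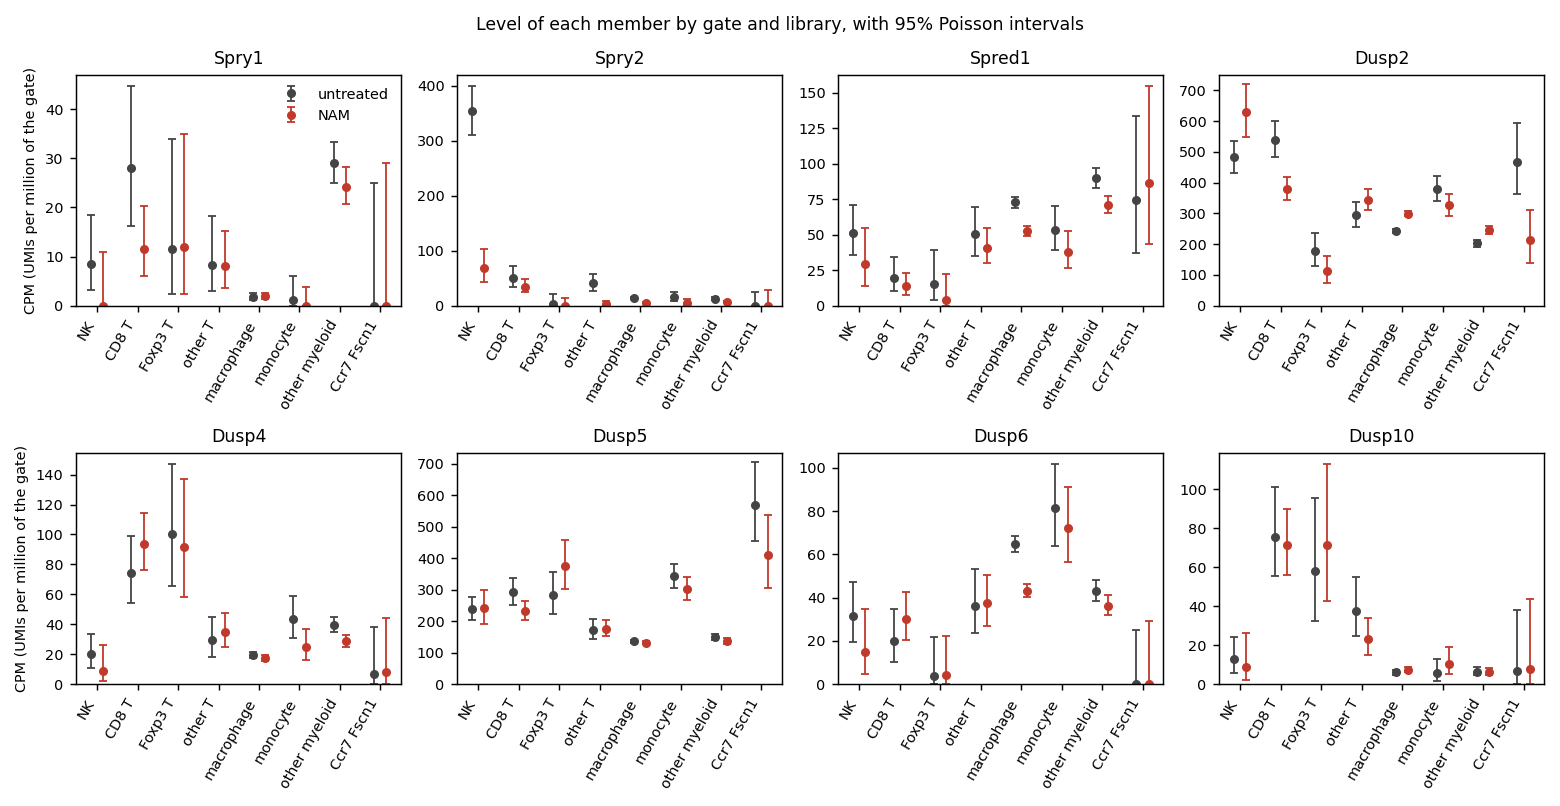
Level of each member (y axes, CPM, each with its own scale) in 8 gates (x axes) of the untreated (dark) and NAM (red) library, as points with 95% Poisson intervals from the summed UMIs of 1 library each. Among these gates, which leave out the cells with both Ncr1 and Cd3e, Spry2 stands at 354 CPM in untreated NK-gated cells and at 68.2 CPM or lower elsewhere. Dusp2 and Dusp5 are present in all gates shown.

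Spry1, the other Sprouty gene here, and Spred1, which brings the Ras-inactivating protein neurofibromin to the membrane, had low counts in NK-gated cells, too few to say whether they shared the pattern of Spry2. Spry1 had 6 UMIs in 2 untreated NK-gated cells and 0 in the 52 NAM cells, and 5 of the 6 UMIs lay in cells with Csf1r. In T-gated cells, Spry1 was at 16.4 CPM (26 UMIs) and 9.97 CPM (24 UMIs), with an interval of the log2 ratio that includes 0 (-1.58 to 0.14). Without the Csf1r cells it had 18 and 13 UMIs (21.3 and 11 CPM). The CD8 T cells held 17 and 12 UMIs of the whole T gate (28 and 11.6 CPM, log2 ratio -1.27, -2.47 to -0.12), and without the Csf1r cells 15 and 11, with an interval that includes 0 (-2.47 to 0.02). Spred1 had 36 and 10 UMIs in NK-gated cells, a log2 ratio of -0.79 (-1.96 to 0.25), and 33 and 8 of them lay in cells with Csf1r. In the stricter NK cells with neither Cd3d nor Csf1r only 3 and 2 Spred1 UMIs were left.

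Spred1 was higher in the myeloid gate than in the T gate (32.9 and 25.3 CPM), whereas Spry1 was not. Spred1 was detected in 50% of untreated myeloid-gated cells (76.6 CPM, 1937 UMIs) and in 39.1% of NAM cells (56.8 CPM, 1557 UMIs), a log2 ratio of -0.43 (-0.53 to -0.33). The lower value in NAM was seen in macrophage-gated cells (72.8 and 52.5 CPM) and in the other myeloid cells (89.8 and 71.1 CPM), while the monocyte interval includes 0 (-1.13 to 0.17). Spry1 was at 9.06 CPM (229 UMIs) and 7.63 CPM (209 UMIs) in the myeloid gate, with an interval that includes 0 (-0.53 to 0.03). The other myeloid cells (29 and 24.3 CPM) were first in the order of Spry1 levels and were not separated from the gate next below them in either library, which in the untreated library was the CD8 T cells. Macrophage-gated cells had 1.76 and 1.91 CPM.

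Most Spry1 molecules of the myeloid gate came from a small set of myeloid cells with osteoclast-associated genes, a split that was chosen after the values had been seen. The 85 untreated and 106 NAM cells with at least 20 UMIs of both Ctsk (cathepsin K) and Acp5 (tartrate-resistant acid phosphatase) held 72.1% and 67% of all myeloid Spry1 UMIs. Spry1 was detected in 63.5% and 60.4% of these cells, and its level was 107 CPM untreated and 77.1 CPM with NAM, against 2.70 CPM in the other myeloid cells of either library. Spred1 was 1.68-fold and 2.03-fold higher in them than in the other myeloid cells, and Dusp4 2.60-fold and 2.36-fold higher. Dusp2 and Dusp5 went the other way. Dusp5 was at 10.3 and 13.2 CPM in the Ctsk Acp5 cells and at 156 and 148 CPM in the other myeloid cells, and Dusp2 at 73.6 and 78.2 CPM against 248 and 301 CPM. These cells were deeper, with a median of 16897 and 16550 UMIs against 9575 and 9569, and the shares of cells with a Spry1 UMI after thinning to 3000 UMIs were 20% and 17% inside the set and 0.655% and 0.6% outside it. Within the set, Spry1 was lower in NAM (log2 ratio -0.47, -0.80 to -0.13), while outside it the counts were 64 and 69.

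**Figure D3:**
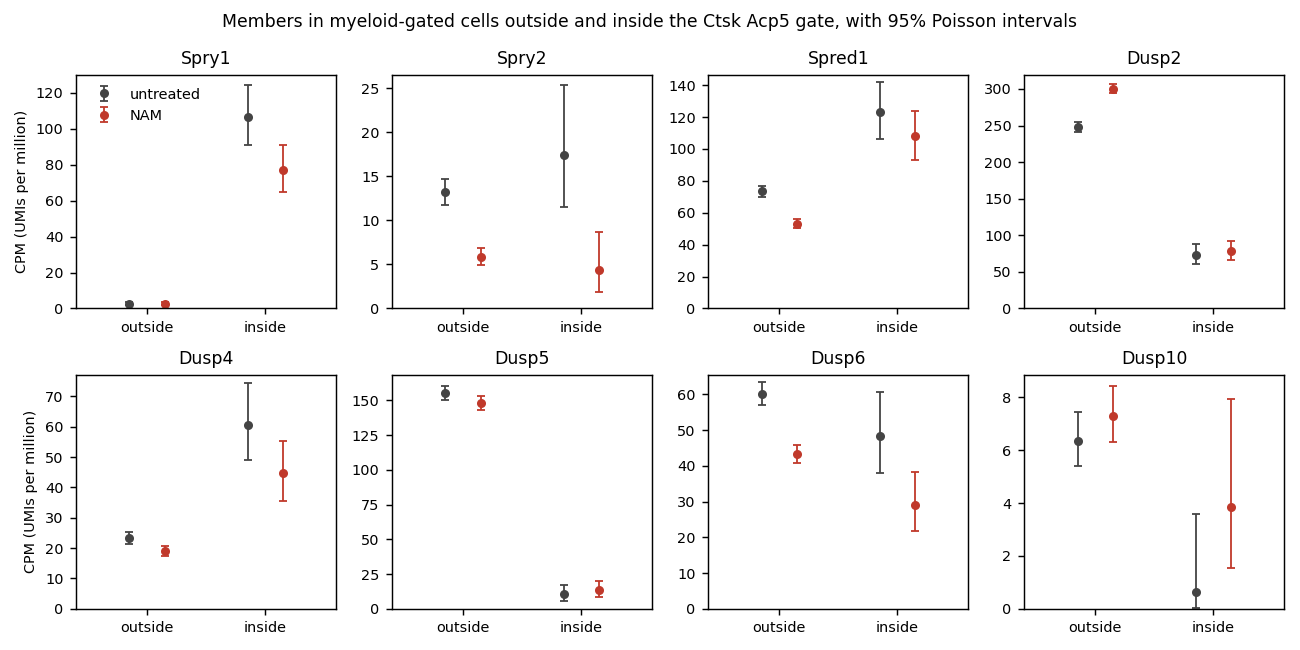
Level of each member (y axes, CPM, own scale in each panel) in myeloid-gated cells outside and inside the Ctsk Acp5 set (x axes), in the untreated (dark) and NAM (red) library, with 95% Poisson intervals. Spry1, Spred1 and Dusp4 are higher inside the set and Dusp2 and Dusp5 lower, in both libraries, and the Dusp10 intervals overlap in NAM.

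The nuclear phosphatases Dusp2 (also called PAC-1), Dusp5, which is selective for ERK, and Dusp4, which acts on ERK and JNK, differed in how widely they were found: Dusp2 and Dusp5 had UMIs in most NK-gated cells of both libraries, and Dusp4 had few UMIs there. Dusp5 was at a similar level in both libraries in NK-gated cells, at 239 CPM (168 UMIs) and 240.1 CPM (81 UMIs), a log2 ratio of 0.01 (-0.39 to 0.40). A Dusp5 UMI was present in 73 of the 92 untreated cells (79.3%, 69.6% to 87.1%) and 30 of the 52 NAM cells (57.7%, 43.2% to 71.3%), and after thinning in 51.1% and 46.2%. Its ratio was -0.10 (-0.29 to 0.09) in T-gated cells and -0.08 (-0.14 to -0.01) in myeloid-gated cells, and the intervals of all 3 gates lie within 1.5-fold. Within the T gate, Dusp5 was lower in NAM in the CD8 T cells (292 and 231 CPM, -0.33, -0.62 to -0.05), but without the Csf1r cells the interval includes 0 (-0.44 to 0.22). The cells that entered no gate had 327 and 220 CPM (-0.57, -0.76 to -0.38). After thinning to 3000 UMIs the NK interval was wider, from -0.90 to 0.27 around -0.30. In the stricter NK cells the ratio was -0.02 (-0.51 to 0.45), and in T-gated cells without Csf1r it was 0.07 (-0.17 to 0.31). The gates themselves differed more. The Ccr7 Fscn1 cells had the highest Dusp5 level in both libraries (570.4 and 410 CPM) and the macrophage-gated cells the lowest (135 and 132 CPM), although in the NAM library the Foxp3-positive T cells, next in order at 374 CPM, were not separated from the Ccr7 Fscn1 cells beyond counting error. The macrophage-gated cells were separated from the gate next above them in the untreated library only.

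Dusp5 was counted in NK cells with and without a Spry2 UMI. In the untreated NK gate, 46 of the 55 cells with Spry2 had Dusp5 (83.6%), against 27 of the 37 without it (73%), and in the NAM gate 9 of 15 (60%) against 21 of 37 (56.8%). Of the 39 untreated cells of the stricter NK gate with a Spry2 UMI, 33 had Dusp5 (84.6%), against 20 of the 23 without Spry2 (87%). In NAM the counts were 6 of 11 (54.5%) and 14 of 23 (60.9%).

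Dusp2 was at 482 CPM (339 UMIs) in untreated and 629 CPM (212 UMIs) in NAM NK-gated cells, a log2 ratio of 0.38 (0.13 to 0.64), with a UMI in 81.5% and 82.7% of cells. This difference was not seen in the stricter NK cells, which had 681 and 705 CPM and a log2 ratio of 0.05 (-0.28 to 0.37), whereas the NK-gated cells with Csf1r had 53 and 63 UMIs (182 and 455 CPM), which is past 2-fold (1.33, 0.78 to 1.88). In T-gated cells Dusp2 was at 369 and 335 CPM, with an interval that includes 0 (-0.30 to 0.02), but in those without Csf1r it was lower in NAM, at 425 and 349 CPM (log2 ratio -0.29, -0.49 to -0.08). In the CD8 T cells it was also lower in NAM, at 539 and 379 CPM (log2 ratio -0.51, -0.72 to -0.29). Myeloid-gated cells had more Dusp2 in NAM, with 237 CPM (5995 UMIs) and 286 CPM (7831 UMIs), a log2 ratio of 0.27 (0.22 to 0.32). This came from macrophage-gated cells (243 and 299 CPM) and other myeloid cells (203 and 246 CPM), not from monocytes (379 and 326 CPM). The Ccr7 Fscn1 cells had 69 and 27 Dusp2 UMIs, a log2 ratio of -1.14 (-1.84 to -0.48) from 16 cells each.

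Dusp4 was higher in the T gate as a whole than in the myeloid gate, although in the untreated library monocytes (43.3 CPM) and other myeloid cells (39.6 CPM) ranked above the T cells without Cd8a, Cd8b1 or Foxp3 (29.3 CPM), with overlapping intervals. It had 14 and 3 UMIs in NK-gated cells, of which 14 and 2 lay in cells with Csf1r, and none in the 62 and 34 stricter NK cells, where 3 UMIs would be 7.91 and 17.8 CPM. In T-gated cells it was at 58.1 CPM (92 UMIs) and 66 CPM (159 UMIs), a log2 ratio of 0.18 (-0.20 to 0.57), and without Csf1r at 75.6 and 91.6 CPM (0.28, -0.18 to 0.75). The Foxp3-positive cells (101 and 91.5 CPM) and the CD8 cells (74.1 and 93.9 CPM) were highest and were not separated from each other. In the myeloid gate Dusp4 had 648 UMIs untreated and 565 with NAM (25.6 and 20.6 CPM), and its log2 ratio was -0.31 (-0.48 to -0.15), which did not hold after thinning each cell to 3000 UMIs (0.12).

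Dusp6, the cytoplasmic ERK phosphatase, was highest in monocyte-gated cells, which were not separated from macrophage-gated cells in the untreated library. Myeloid-gated cells had 59.5 CPM (1504 UMIs) untreated and 42.3 CPM (1160 UMIs) with NAM, a log2 ratio of -0.49 (-0.60 to -0.38). Macrophage-gated cells had 64.7 and 43.1 CPM (log2 ratio -0.59, -0.72 to -0.46). The other myeloid cells had 43 and 36.3 CPM, a log2 ratio of -0.24 with an upper bound at 0.002, and the Ctsk Acp5 cells had 48.4 and 29.2 CPM (-0.73, -1.27 to -0.20). Monocyte-gated cells had 81.3 and 72.2 CPM with an interval that includes 0 (-0.66 to 0.32). Some myeloid-gated cells carried Lepr, the leptin receptor gene, and these differed in number between the libraries (222 and 60 cells, a split chosen after the values had been seen). Dusp6 in them was at 74.4 and 37.4 CPM, and in the myeloid cells without Lepr the log2 ratio was -0.44 (-0.56 to -0.32). In NK-gated cells Dusp6 had 22 and 5 UMIs, a ratio past 2-fold (-1.08) with an interval from -2.83 to 0.36, and 18 and 3 of these UMIs lay in cells with Csf1r. T-gated cells had 39 and 74 UMIs (24.6 and 30.7 CPM), with an interval that includes 0 (-0.26 to 0.92), and 15 and 21 of these UMIs lay in cells without Csf1r.

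Dusp10, which acts on p38 and JNK, was higher in the T gate than in the NK and myeloid gates. T-gated cells had 55.6 CPM (88 UMIs) and 49 CPM (118 UMIs), a log2 ratio of -0.18 (-0.59 to 0.23), and in the cells without Csf1r 86.3 and 78.9 CPM (-0.13, -0.59 to 0.33), whereas myeloid-gated cells had 6.01 and 7.08 CPM and NK-gated cells 9 and 3 UMIs. The CD8 T cells (75.8 and 71.6 CPM) and the Foxp3-positive T cells (58 and 71.6 CPM) were not separated from each other in either library. The 3 myeloid subsets of the untreated library ranged from 5.42 to 6.33 CPM.

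**Figure D4:**
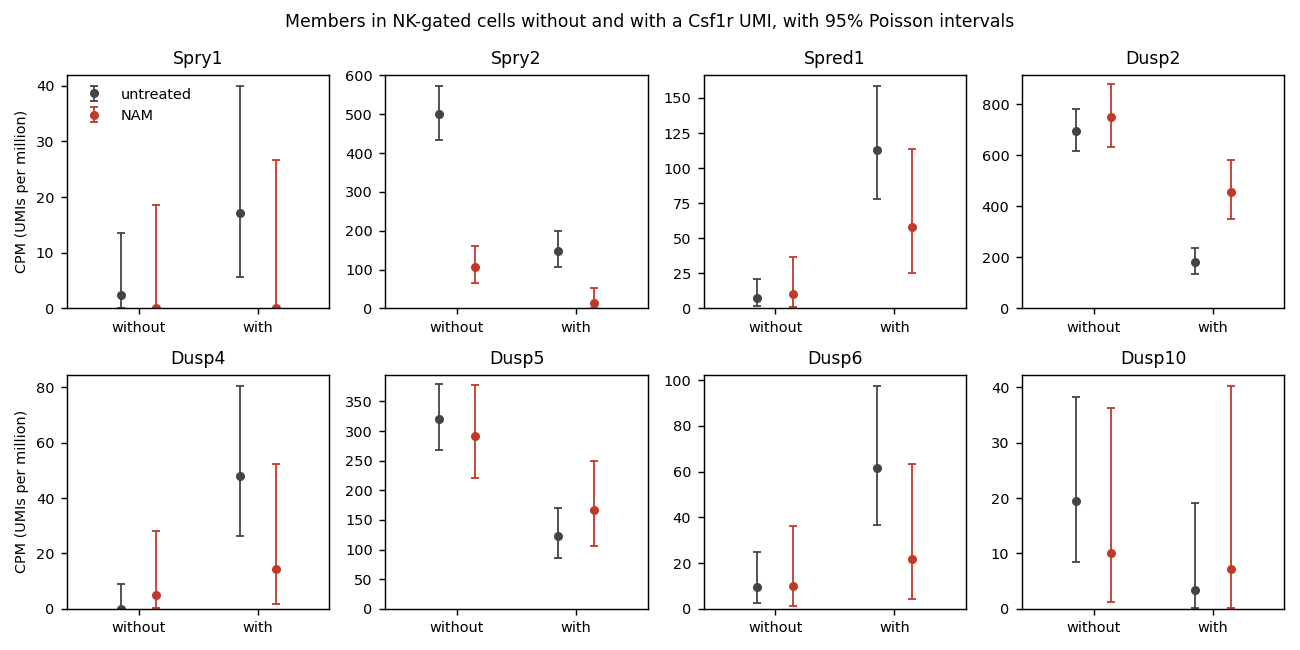
Level of each member (y axes, CPM, own scale in each panel) in NK-gated cells without and with a Csf1r UMI (x axes), in the untreated (dark, 68 and 24 cells) and NAM (red, 38 and 14 cells) library, with 95% Poisson intervals. In the untreated library Spry2, Dusp2 and Dusp5 are higher in the cells without Csf1r and Spred1, Dusp4 and Dusp6 in the cells with it. In NAM the Poisson intervals of Spred1, Dusp4, Dusp5 and Dusp6 overlap between the cells with and without it. The conditional binomial interval of the log2 ratio, with over without Csf1r, still leaves out 0 in NAM for Spred1 (2.52, 0.20 to 5.80) and Dusp5 (-0.81, -1.58 to -0.09).

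Counted over the members, 5 of 8 reached 20 UMIs over both libraries in the NK gate, and 2 of these, Spry2 and Dusp6, were at least 2-fold lower in NAM, where 6.21% of the 5236 genes with that many UMIs were. None was at least 2-fold higher, against 3.28% of all genes. In the T gate all 8 reached 20 UMIs, 1 of them, Spry2, was at least 2-fold lower (3.15% of 8944 genes) and none at least 2-fold higher (1.98%). In the myeloid gate it was again Spry2 alone that was 2-fold lower (2.37% of 12237 genes), and none was 2-fold higher (0.817%). Because Spry2 was picked on this contrast, nothing is read from these counts. The median log2 ratio of the members with 20 UMIs, Spry2 included, was -0.79, -0.16 and -0.28 in the NK, T and myeloid gates, beside -0.06, -0.01 and -0.04 over all such genes, and nothing is read from these either. The NK median is the value of Spred1, whose UMIs lay mostly in cells with Csf1r. In the stricter NK cells 3 members had 20 UMIs, Spry2 (-2.34), Dusp5 (-0.02) and Dusp2 (0.05).

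**Figure D5:**
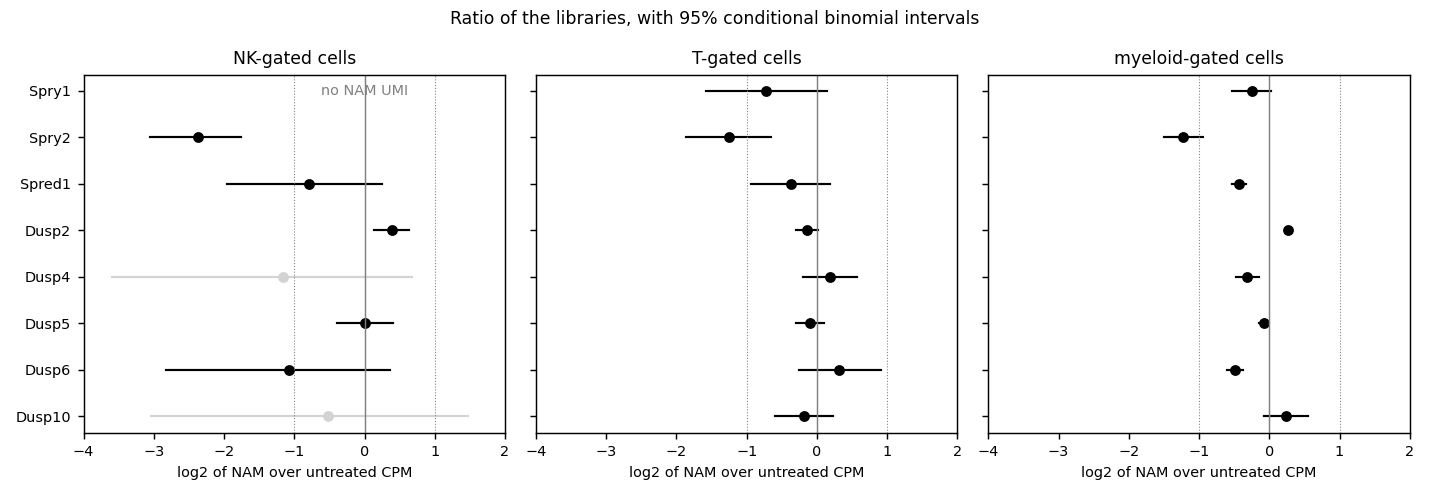
Log2 of the NAM over the untreated CPM (x axes) of the 8 members (y axis) in NK-, T- and myeloid-gated cells, with 95% conditional binomial intervals, dotted lines at 2-fold, and light grey for members under 20 UMIs. Only Spry2 has an interval wholly below 0 in all 3 gates, from -2.38 in NK-gated to -1.22 in myeloid-gated cells.

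Other genes of the same pathway were counted in lists. Of 26 further feedback inhibitors, 11 reached 20 UMIs in the NK gate. Rasa3, which inactivates Ras and Rap proteins, was at least 2-fold lower in NAM (25 and 5 UMIs, log2 ratio -1.26, -3.00 to 0.15), and Errfi1, an inhibitor of the EGF receptor, was at least 2-fold higher (18 and 18 UMIs, 1.06, 0.03 to 2.09). Over all genes of this gate with 20 UMIs, 6.21% were at least 2-fold lower and 3.28% at least 2-fold higher. The median over the 11 feedback genes was 0.06. The nearest relatives of Spry1 and Spry2 were too low to compare, with no Spry3 or Spry4 UMI in NK- or T-gated cells and 2 and 1 Spry4 UMIs in myeloid-gated cells. Spred2 had 6 and 1 UMIs in NK-gated cells and 9.10 and 6.93 CPM in myeloid-gated cells, and Spred3 36 and 23 UMIs in myeloid-gated cells.

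Among the other DUSP genes, Dusp1, a stress-induced phosphatase, was higher in NAM in all 3 gates: 331 and 457 CPM in NK-gated cells (log2 ratio 0.46, 0.16 to 0.76), 430.4 and 521 CPM in T-gated cells (0.28, 0.14 to 0.41) and 747 and 844 CPM in myeloid-gated cells (0.18, 0.15 to 0.20). In the stricter NK cells it was at 369 and 403 CPM (0.12, -0.32 to 0.55) and in T-gated cells without Csf1r at 384 and 385 CPM (0.00, -0.20 to 0.21), so that the higher value was not seen there. In T-gated cells Dusp3 was the 1 of 18 feedback genes at least 2-fold lower in NAM (70 and 45 UMIs, -1.24, -1.82 to -0.68), where 3.15% of all genes were. In myeloid-gated cells none of 24 was past 2-fold in either direction, where 2.37% of all genes were lower and 0.817% higher. Dusp14 had 58.8 and 48.6 CPM and Dusp16 24 and 25.7 CPM in T-gated cells. In myeloid-gated cells Dusp3, Dusp7, Dusp8 and Dusp9 were lower in NAM, with log2 ratios from -0.85 to -0.50 and intervals below 0, whereas Dusp18 was higher (114 and 183 UMIs, 0.57, 0.22 to 0.92).

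Among the kinases and adaptors of the ERK cascade, none of the 15, 19 and 21 with 20 UMIs in the NK, T and myeloid gates was past 2-fold. Over all genes with that many UMIs, 6.21%, 3.15% and 2.37% were at least 2-fold lower and 3.28%, 1.98% and 0.817% at least 2-fold higher. With lists of this size, nothing is read from these counts. The cascade medians were -0.01, -0.14 and -0.09. Grb2, which links receptors to the Ras exchange factor SOS and is named here after its values were seen, was lower in NAM in all 3 gates, with log2 ratios of -0.68 (-1.23 to -0.15) in NK-gated, -0.68 (-0.90 to -0.46) in T-gated and -0.62 (-0.67 to -0.56) in myeloid-gated cells. The p38 and JNK branch had a median of -0.78 over 6 genes in the NK gate, beside -0.06 over all genes, and the intervals of all 6 include 0. Of these, Map3k1 was past 2-fold (18 and 4 UMIs, -1.11, -3.13 to 0.49), where 6.21% of all genes were at least 2-fold lower. This list was not counted in the stricter NK cells. Its medians in the T and myeloid gates were -0.19 and -0.13. Of the 16 MAP kinase target genes counted in the NK gate, 13 had a ratio above 0 and 3 below, with a median of 0.34, where 45.2% of all 5236 genes had a ratio above 0. Ier3, an immediate early gene, was at least 2-fold higher (55 and 73 UMIs, 1.47, 0.94 to 2.00) and Jun at least 2-fold lower (182 and 43 UMIs, -1.02, -1.54 to -0.53). Egr1, a target of ERK through serum response factor, was at 46.9 and 65.2 CPM with an interval that includes 0 (-0.37 to 1.30). The summed macrophage marker CPM was higher in the NAM cells of this gate, as given above, and Ier3 was at 521 and 493 CPM in myeloid-gated cells. In the stricter NK cells, where the lists were counted after the values of the whole gate had been seen, 5 of the 11 target genes with 20 UMIs had a ratio above 0, with a median of -0.03, where 49.9% of 3293 genes were above 0. There Ier3 had 18 and 15 UMIs (0.90) and Jun 43 and 13 (-0.56), both with intervals that include 0, and Fos, a partner of Jun in AP-1, was at least 2-fold higher (26 and 41 UMIs, 1.82) and Fosb at least 2-fold lower (27 and 6 UMIs, 71.2 and 35.5 CPM, with an interval that includes 0). The target medians in T and myeloid cells were 0.01 and -0.01.

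Lists of NK activation and tissue residency were counted in the same NK-gated cells, where 3.28% of all genes were at least 2-fold higher and 6.21% at least 2-fold lower in NAM. Of the 7 conventional and 7 tissue-resident NK genes with 20 UMIs, 1 each (Klrg1 and Gzmc) was at least 2-fold lower and none at least 2-fold higher. The medians were -0.18 over 7 genes of conventional NK cells, -0.43 over 7 genes of tissue-resident NK cells and 0.96 over 12 effector genes. Gzmc, a granzyme gene of activated and tissue-resident NK cells, was at 3179.7 CPM untreated and 990.2 CPM with NAM (2237 and 334 UMIs, log2 ratio -1.68, -1.85 to -1.52). Il2ra, the high-affinity chain of the interleukin 2 receptor, had 21 and 1 UMIs (-3.33, -8.70 to -0.70), and Klrg1, a maturation marker, 24 and 3 UMIs (-1.94, -4.31 to -0.22). Of 12 effector genes, 6 were at least 2-fold higher in NAM: Ifng (7 and 17 UMIs), Tnf (18 and 27), Ccl3 (67 and 70), Ccl4 (179 and 207), Nr4a2 (32 and 32) and Cd69 (35 and 38). Il2ra was the only one of the 12 at least 2-fold lower. Xcl1, a chemokine gene that is on both the effector and the resident list, was lower by less than that (1060 and 301 UMIs, log2 ratio -0.76, -0.95 to -0.57). In the stricter NK cells, 4 of 10 effector genes with 20 UMIs were at least 2-fold higher, Ifng (6 and 16 UMIs), Ccl4 (42 and 53), Nr4a2 (17 and 23) and Cd69 (24 and 26), where 4.46% of the 3293 genes were, and none was at least 2-fold lower (6.26%). Il2ra, with 18 and 1 UMIs there, was 1 UMI short of the minimum and is not in that count. The macrophage marker CPM was higher in NAM in these cells too, and its part in the higher counts was not tested.

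The genes whose levels were most like those of Spry2 over 7 non-overlapping gates in both libraries (14 points that share libraries and depth) were 4930486L24Rik (Pearson r 0.93 of log2 CPM plus a pseudocount of 10), Cxxc5 (0.91), F2r, the thrombin receptor (0.90), Rad54l2 (0.89) and Ugcg, the glucosylceramide synthase (0.89), among 10570 genes with at least 100 UMIs. In NK-gated cells Ugcg had 256 and 136 CPM and F2r 75.3 and 47.4 CPM.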

How the data were processed

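The authors prepared 10x Genomics 3′ version 2 libraries, aligned them to mm10 with Cell Ranger and deposited raw UMI counts per gene and cell barcode. The annotation version is not given in the sources used here. All 2922 and 3276 barcodes had at least 3000 UMIs. No doublet caller was run, and leaving out the deepest 5% of a gate stands in as an alternative. The members and gene lists were chosen with earlier results of these data known.

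Counts were summed over the cells of each gate and divided by the gate total. Exact Poisson, Clopper-Pearson and conditional binomial 95% intervals cover counting error only (Python 3.11.15, NumPy 2.4.6, SciPy 1.17.1). A gene counted as past the threshold at 2-fold or more with at least 20 UMIs over both libraries. Cells were also thinned to 3000 UMIs, and no cell was too shallow for it. List genes were named if past 2-fold (at most 10 per gate) or if close paralogs of a member. Egr1, Xcl1, Grb2 and Dusp18 were named outside this rule. Interval coverage was checked on simulated data. Alternatives were other scaling, gates, thinning, weighting of cells and thresholds. Gene positions came from GENCODE vM21 and promoters from RefSeq. Of 119 list genes 117 were in the files, and of 68 markers 64. The files name genes by symbol only.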

Additional observations from a re-analysis of the deposited data

How the results depend on the processing

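The Spry2 log2 ratio in NK-gated cells lay between -3.04 and -2.32 under 9 alternatives, including 2 chosen after seeing the data (without cells with Gzmf or Gzmg, and with cells that have both Ncr1 and Cd3e). The count of members at least 2-fold lower in NK-gated cells, 2 as reported, was 1 with the stricter gates, under both ways of thinning, with the mean of per-cell CPM, without the 5 cells with most UMIs of the gene, without the deepest 5% of cells, with the cells that have both Ncr1 and Cd3e, and with a minimum of 50 UMIs, and it was 4 with no minimum. For T-gated cells the count, 1 as reported, was 0 with the stricter gates and when cells were thinned and gated again, and 2 when thinned cells kept their gate, with the mean of per-cell CPM, without the 5 highest cells and at 1.5-fold. For myeloid-gated cells it was 0 instead of 1 when thinned cells kept their gate, where the Spry2 log2 ratio was -0.94. The cause of these shifts was not tested. No member was at least 2-fold higher in the NK, T or myeloid gate under any of these settings. Over all members with 20 UMIs, 33 of 44 alternative ratios kept their direction in the NK gate, 54 of 56 in the T gate and 54 of 56 in the myeloid gate. Dusp2 in NK-gated cells ranged from -0.11 to 0.44 and Spred1 from -1.03 to 0.65. No paired analysis was possible because each group holds 1 library. In the 52 NAM NK-gated cells 3 UMIs would be 8.89 CPM, so that a count of 0 there does not show a member to be absent.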
